A study of Homo sapiens with 4 samples.

Results

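Immediate early genes are switched on within minutes of a growth or stress signal, without the need for new protein, and several of them carry few introns or none. The genes examined here are JUN, JUNB, JUND, FOS, FOSL1, FOSL2, EGR1, IER2, IER3 and MYC, 10 of 23217 gene symbols listed. They were chosen by name and not by their values, though with earlier results of these data known. The genes were measured in LV-M100 cells after depletion of SNRNP40. These cells grew from 1 clone of the human breast cancer line MDA-MB-231 chosen for low variability in cell morphology. All rows of the deposited transcript table that carry these symbols were taken, 15 of 44578 listed transcripts, and FPKM was summed per gene symbol. FPKM, a measure of sequenced fragments, corrects for transcript length and library size, so that levels can be compared between genes.

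RNA came from 4 libraries, each prepared 48 h after transfection. No growth or stress stimulus is described for these cells, so the values are levels at that time, and induction by a signal was not measured. SNRNP40 replicates 1 and 2 received siSNRNP40 #1 and siSNRNP40 #2. As controls, NC1, a negative control siRNA, was used in replicate 1, and BLOCK-iT Fluorescent Oligo in replicate 2. All 4 libraries therefore carry transfected RNA. The table gives 1 value per condition, in which the authors combined the 2 libraries, so no value below has a replicate error, and no test was made between the conditions. The authors' own test columns in the table were not used. Depth is unknown, because no read counts are listed. In these bulk samples fewer cells that transcribe a gene and less RNA per cell cannot be told apart.

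SNRNP40, the target, was listed at 40.4 FPKM after control siRNA and at 6.12 after SNRNP40 siRNA. Among genes that mark the cell line, the mesenchymal intermediate filament gene VIM was listed at 750.1 and 733.0, and CD44 and AXL were each above 100 in both conditions. The oestrogen receptor gene ESR1, the progesterone receptor gene PGR and the cadherin gene CDH1 were below 0.1 in both conditions. The epithelial adhesion gene EPCAM had 10.6 and 10.0, and the leukocyte gene PTPRC was listed at 0.

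The JUN and FOS proteins are basic leucine zipper factors that pair with each other to form AP-1, which binds DNA at the promoters and enhancers of growth, migration and stress genes. FOSL1 and FOSL2 are FOS relatives that lack the strong transactivation domain of FOS and often dominate in mesenchymal breast cancer lines. EGR1 is a zinc finger factor that serum response factor switches on, IER2 and IER3 are small proteins induced by growth factors and stress, and MYC drives ribosome production and cell growth. SNRNP40 belongs to the U5 particle of the spliceosome, which holds the exon ends while an intron is removed. A gene without introns needs no such step, and the comparison of members with and without introns asks how both kinds fared when SNRNP40 was low.

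The annotation of GRCh37, the same build as the hg19 of the table, gives a canonical transcript of 1 exon for JUN, JUNB and JUND. JUN also has an annotated form of 4 exons that is marked for nonsense-mediated decay, and JUND has an annotated protein-coding form of 2 exons. The other members are spliced, with 2 exons in EGR1, IER2 and IER3, 3 in MYC and 4 in FOS, FOSL1 and FOSL2. IER2, grouped with the intronless genes here, therefore goes against that label. Its canonical transcript holds an intron of 2391 bases in the 5' UTR, and the listed transcript starts at 13261282 of chromosome 19, upstream of the annotated unspliced form, which starts at 13262789. IER3 has an intron of 112 bases, and 6.65% of the introns of all canonical protein-coding transcripts are no longer than that. An annotated form of IER3 keeps this intron and covers nearly the same stretch of chromosome 6, from 30710976 to 30712325. The table lists IER3 from 30710976 to 30712327 as 1 transcript, so the spliced and unspliced forms cannot be told apart.

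The intron ends of the 3 members with a single intron, and of the first FOSL1 intron for comparison, show what SNRNP40 and its partners must process. Each is read 5′ to 3′ along the gene from GRCh37, as the first 12 and the last 20 bases of the intron, with the invariant dinucleotides in capitals.
IER3 start (chr6:30711974-30712085, minus strand): GTgagtatcgcc
IER3 end: cctgttttgtctccccttAG
EGR1 start (chr5:137801758-137802445, plus strand): GTaagcagtggc
EGR1 end: gcttctctctctcctgccAG
IER2 start (chr19:13261367-13263757, plus strand): GTaaataatgat
IER2 end: tcgcattctgtctctttaAG
FOSL1 start (chr11:65664478-65667711, minus strand): GTgagtggggcc
FOSL1 end: ttccatttcttattccttAG

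The 5' end of the intron of IER3 and of the first intron of FOSL1 matches the consensus GTAAGT or GTGAGT over all 6 bases. These were 2 of the 14 member introns (14.3%), against 28% of 188863 canonical protein-coding introns. Over the first 5 bases, GTAAG or GTGAG, 10 of the 14 member introns (71.4%) and 54.2% of all introns matched. The 4 that did not were the IER2 intron shown above, the last FOS intron and the first and second of FOSL2. Of the pair of genes that hold the full consensus, IER3 was lower and FOSL1 higher with SNRNP40 siRNA.

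**Figure D1:**
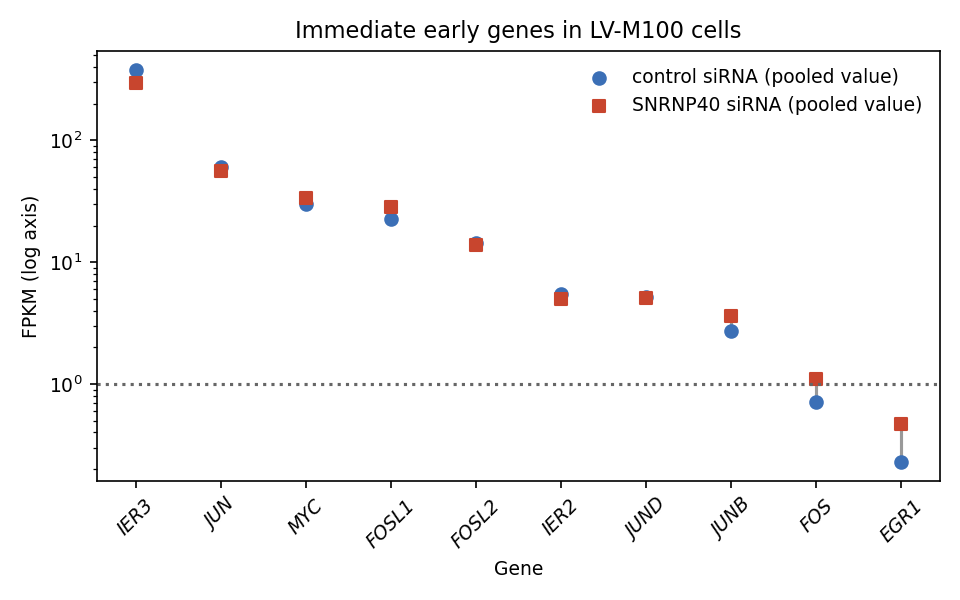
FPKM (log axis) of each immediate early gene with control siRNA (circles) and SNRNP40 siRNA (squares), 1 pooled value per condition and no error available; the dotted line marks an FPKM of 1. The levels span from 376 for IER3 to 0.231 for EGR1 with control siRNA, and the pair of values of a gene lie close together except for FOS and EGR1.

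The members differed far more from each other than between the conditions. IER3 was the most abundant in both conditions, followed by JUN, MYC, FOSL1 and FOSL2. IER2 and JUND were next and exchanged places between the conditions, with 5.49 and 5.22 FPKM with control siRNA and 4.99 and 5.10 with SNRNP40 siRNA. JUNB, FOS and EGR1 were the lowest in both. FOS and EGR1 had a mean FPKM under 1, the limit set for a gene to enter the summaries, so 8 of the 10 members passed. Each member is listed as 1 transcript on the primary chromosomes, and the other 5 rows are copies of IER3 on alternative haplotypes of chromosome 6, all at 0.

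The log2 ratio divides the FPKM with SNRNP40 siRNA by that with control siRNA, and no pseudocount was added. Of the 12334 gene symbols that passed the filter, 1.47% had an absolute log2 ratio above 1 and 10.3% above 0.5. Of the 8 members that passed the filter, 0 were past either limit. Their log2 ratios ran from -0.34 for IER3 to 0.41 for JUNB, with 3 above and 5 below 0. The median of the 8 was -0.048 and that of all 12334 gene symbols was 0.0034. With FOS and EGR1 included, the median of the 10 members was 0.068.

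**Figure D2:**
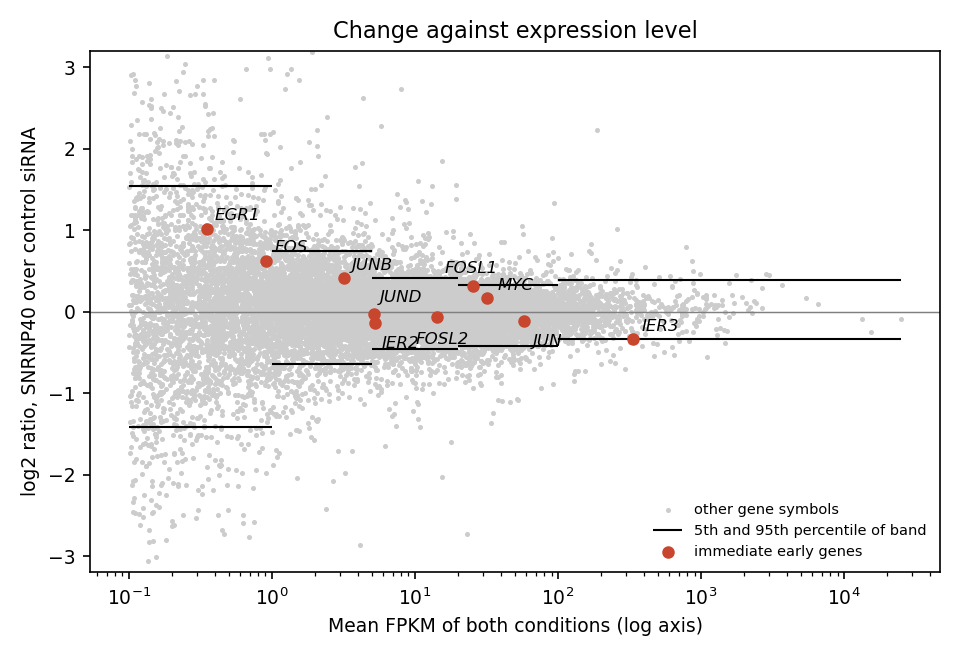
The log2 ratio of each gene symbol (grey, with a mean FPKM of at least 0.1) against its mean FPKM over both conditions (log axis), with the immediate early genes in red and black lines at the 5th and 95th percentiles of each band of mean FPKM; 34 gene symbols lie beyond the axis. Every red point lies inside its band's lines except IER3, which lies on the lower one (-0.34).

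JUN, the major AP-1 partner, is intronless and is found at 59246463 to 59249785 of chromosome 1, minus strand. Its level was 60.5 FPKM with control siRNA and 55.6 with SNRNP40 siRNA, a log2 ratio of -0.12. Of the gene symbols that passed the filter, 31.0% had a lower ratio. JUND, a JUN relative that is present in resting cells, lies on the minus strand of chromosome 19 from 18390563 to 18392432. It had 5.22 and 5.10 (-0.032). JUNB, which can oppose JUN in the control of growth, lies on the plus strand of chromosome 19 from 12902310 to 12904125. It had 2.72 and 3.60, a log2 ratio of 0.41, which was the highest of the 8 members above the filter. Gene symbols with a mean FPKM from 1 to 5 lay between -0.64 and 0.74 at their 5th and 95th percentiles, a range that holds the JUNB value. The JUN family thus stood with JUN at 88.4% of its summed FPKM with control siRNA and 86.5% with SNRNP40 siRNA. Its sum was 68.4 and 64.3 (-0.088).

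FOSL1 made up most of the FOS family. It lies on the minus strand of chromosome 11 from 65659692 to 65667997 and had 22.8 FPKM with control siRNA and 28.5 with SNRNP40 siRNA, a log2 ratio of 0.32. That value lay just inside the 95th percentile of gene symbols with a mean FPKM from 20 to 100, also 0.32. FOSL2, on the plus strand of chromosome 2 from 28615779 to 28637516, had 14.5 and 13.9 (-0.064). Its 3 introns, of 3063 to 10284 bases, add up to 17747 bases, the most of any member. FOS, on the plus strand of chromosome 14 from 75745481 to 75748937, had 0.718 and 1.11 (0.63). FOSL1 held 60.0% of the family's summed FPKM with control siRNA and 65.5% with SNRNP40 siRNA, and FOSL2 held 38.1% and 31.9%. FOS itself, the founding member of the family, held only 1.89% and 2.55%. The sum was 38.0 and 43.4 (0.19). The summed FOS family was 0.555 of the summed JUN family with control siRNA and 0.675 with SNRNP40 siRNA.

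EGR1 lies on the plus strand of chromosome 5 from 137801181 to 137805004. It was the lowest member in both conditions, with an FPKM of 0.231 and 0.467, and had the highest log2 ratio, 1.02. FOS and EGR1 were both higher with SNRNP40 siRNA, at levels where ratios scatter most. Among 3248 gene symbols with a mean FPKM from 0.1 to 1, 27.6% had a log2 ratio above 0.5 and 11.5% above 1. Their 5th and 95th percentiles were -1.42 and 1.54. With a pseudocount of 1 FPKM the log2 ratio of FOS was 0.30 and that of EGR1 0.25.

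IER3, which affects cell survival, had 376.4 FPKM with control siRNA and 297.2 with SNRNP40 siRNA, a difference of -21.0% (log2 ratio -0.34). Of the gene symbols that passed the filter, 10.3% had a lower ratio, and the 5th percentile of those with a mean FPKM of at least 100 was also -0.34. It was the member with the most RNA and the shortest intron, and the lowest log2 ratio of the 10. The next shortest intron, of 115 bases, is the last of FOS, whose log2 ratio was 0.63 at a mean FPKM under 1. IER2, a nuclear regulator of early transcription on the plus strand of chromosome 19 from 13261282 to 13265718, had 5.49 and 4.99 (-0.14). STX10, which lies 294 bases from IER2, had the nearly equal log2 ratio of -0.14.

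MYC lies on the plus strand of chromosome 8 from 128748315 to 128753680. Its level was 29.8 FPKM with control siRNA and 33.5 with SNRNP40 siRNA, a log2 ratio of 0.17. Of the gene symbols that passed the filter, 74.3% had a lower one.

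The question of introns was addressed by setting the medians of the groups side by side. The 4 members grouped as intronless had a median log2 ratio of -0.076, from -0.14 for IER2 to 0.41 for JUNB. The spliced members above the filter, also 4, had a median of 0.052, from -0.34 for IER3 to 0.32 for FOSL1. The groups overlapped, and the difference of the medians was -0.13. Where IER2 was instead counted as spliced, as annotated, the medians were -0.032 for the 3 genes of 1 exon and -0.064 for the 5 spliced genes, and the difference was 0.032. With FOS and EGR1 included, the difference between the groups as named was -0.32, and between the groups as annotated -0.20. The sign of the difference thus rests on where IER2 is placed and on a pair of genes under an FPKM of 1.

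**Figure D3:**
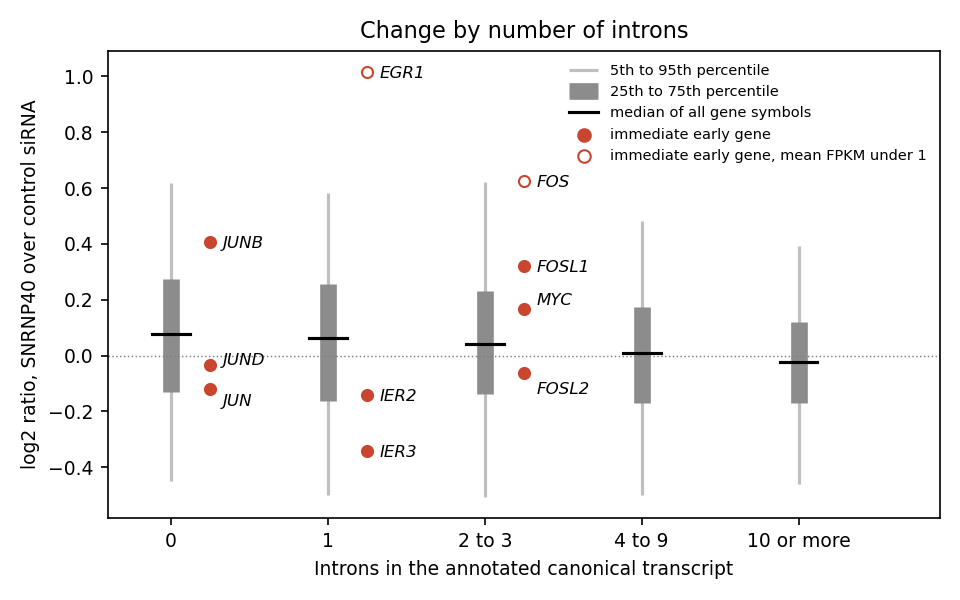
The log2 ratio of SNRNP40 siRNA over control siRNA by the number of introns in the canonical transcript, for all annotated gene symbols that passed the filter (black line, median; thick bar, 25th to 75th percentile; thin line, 5th to 95th) and for the immediate early genes (red; open where the mean FPKM is under 1). The median over all gene symbols goes from 0.076 without introns to -0.024 with 10 or more, and the immediate early genes lie on both sides of 0 in each of their 3 bins.

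Over all expressed gene symbols the median log2 ratio was lower with more introns. It was 0.076 for 330 gene symbols without an intron, 0.061 for 489 with 1, 0.041 for 1583 with 2 to 3, 0.0080 for 4265 with 4 to 9 and -0.024 for 4755 with 10 or more. These shifts were small beside the spread within a bin, such as -0.13 to 0.27 between the 25th and 75th percentiles of gene symbols without introns. The median without introns minus that with 1 or more introns was 0.077. For the members above the filter, the difference was -0.13 as grouped and 0.032 as annotated. Expression differed between the bins as well, with a median of the mean FPKM of 5.69 without introns and 12.1 with 10 or more, and its part in the shift was not tested. JUN and JUND were below the median of their bin and JUNB above it. IER2 and IER3 were below the median of genes with 1 intron and EGR1 above it. FOSL2 was below the median of genes with 2 to 3 introns, and FOS, FOSL1 and MYC were above it.

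The 4 gene lists around the members were summarised in the same way. Of 9 AP-1 and ATF partners, 7 passed the filter, with a median log2 ratio of 0.21, which was -0.12 at a mean FPKM of at least 5. Of the 7, 2 were above 0.5 and 1 below -0.5, or 42.9% past 0.5 beside the 10.3% over all gene symbols. BATF, a leucine zipper partner of JUN proteins in immune cells, had 2.99 FPKM with control siRNA and 5.83 with SNRNP40 siRNA (0.96). ATF3, a stress-induced factor, had 1.24 and 1.85 (0.58). The 10.3% covers all levels above the filter, and both genes had a mean FPKM from 1 to 5. Gene symbols of that band lay between -0.64 and 0.74 at their 5th and 95th percentiles, a range that holds ATF3 and not BATF. ATF2, a partner of JUN that stress kinases activate, had 29.2 and 19.8 (-0.56), summed over 21 listed transcripts. The 5th percentile of gene symbols with a mean FPKM from 20 to 100 was -0.42. ATF4, the most abundant of the list and the effector of the integrated stress response, had 147.1 and 135.4 (-0.12). ATF7 had a log2 ratio of 0.21. FOSB was listed at 0.169 and 0.158, and BATF2 was also under a mean of 1.

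Of 44 other early response genes, 30 passed the filter, 14 of them above and 16 below 0, with a median of -0.015. Past 0.5 in either direction were 4 of the 30, or 13.3%, beside the 10.3% over all gene symbols. KLF4, a zinc finger factor of cell identity, had 6.78 FPKM with control siRNA and 19.7 with SNRNP40 siRNA, a log2 ratio of 1.54 and the only 1 of the 30 past 1. Over all gene symbols that passed the filter, 1.47% were past 1 in either direction. GADD45A, a growth arrest and DNA damage gene, had 20.9 and 32.8 (0.65). Lower were HES1, a Notch target that represses transcription, with 11.1 and 7.32 (-0.60), and DUSP6, a phosphatase that damps growth factor signalling, with 59.1 and 39.6 (-0.58). The most abundant genes of the list were the survival gene MCL1 with 80.4 and 63.1 (-0.35), the phosphatase subunit gene PPP1R15A with 50.1 and 66.8 (0.41) and the urokinase receptor gene PLAUR with 45.1 and 60.1 (0.41). The relatives of EGR1 were under the filter too. EGR2 had 0.113 and 0.312, EGR3 0.0673 and 0.0646, and EGR4 was listed at 0 with SNRNP40 siRNA. Under the filter, 6 genes of this list were above 0.5 and 1 was below -0.5, ARC, NR4A1, DUSP2, BTG2, ID3 and EGR2 on the one side and ZFP36 on the other. Of the 5020 gene symbols under the filter that had a ratio, 32.4% were above 0.5 and 25.6% below -0.5.

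**Figure D4:**
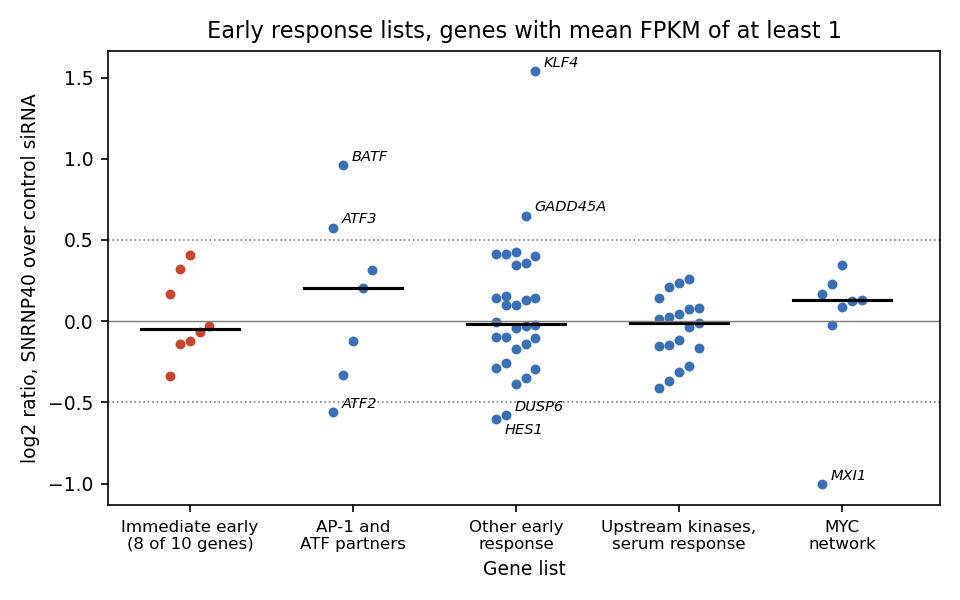
The log2 ratio of SNRNP40 siRNA over control siRNA for the genes of each list that passed the filter, with the list's median as a black bar and dotted lines at 0.5 and -0.5. The 8 immediate early genes and the 19 upstream genes all lie between the dotted lines, while KLF4 lies highest (1.54) and MXI1 lowest (a ratio of 0.498 on the linear scale). Of all gene symbols that passed the filter, 10.3% are past 0.5 in either direction.

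The kinases and factors that drive early genes stayed within 0.5 of 0 where they passed the filter. Of 21 genes 19 passed the filter, with a median of -0.012. Of these, 0 were past 0.5 in either direction, beside 10.3% of all gene symbols that passed the filter. SRF, the serum response factor, had 14.2 FPKM with control siRNA and 16.7 with SNRNP40 siRNA (0.23). MAP2K2, a kinase gene of the growth factor pathway, had 111.5 and 117.6 (0.076). RPS6KA4, a kinase gene further down that pathway, had 25.4 and 29.3 (0.21). RPS6KA2 and MAPK10, both past 0.5, were under a mean FPKM of 1, with log2 ratios of -0.51 and 1.13.

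In the MYC network 8 of 11 genes passed the filter, 6 above and 2 below 0, with a median of 0.13. With the most expressed transcript of each gene in place of the sum, the median was -0.090. MAX, the obligate partner of MYC, had 49.1 FPKM with control siRNA and 55.1 with SNRNP40 siRNA (0.17), the same log2 ratio as MYC. MXI1, which competes with MYC for MAX, had 17.9 and 8.91, a linear ratio of 0.498, summed over 3 listed transcripts. It was the only gene of this list that passed the filter and was past 0.5, and it was also past 1. The share of the 8 past 0.5 was thus 12.5%, beside 10.3% over all gene symbols that passed the filter. Over all of those, 1.47% were past 1. MXD3 and MLX, the next in abundance, had log2 ratios of 0.13 and 0.088. MYCL1 was under an FPKM of 0.2 in both conditions and had a log2 ratio of 1.81, and MYCN was listed at 0.

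Early messages are often short-lived, and the letters AUUUA in the 3' UTR are a common mark of unstable RNA. They were found in the canonical 3' UTR of 9 of the 10 members, IER2 being the exception, and in 74.4% of 10983 expressed protein-coding genes. FOSL2 had 9, IER3 and MYC 6 each, FOS 5, JUN 3, JUNB 2, and JUND, EGR1 and FOSL1 1 each. Per kilobase of 3' UTR the members had a median of 2.09 and the expressed genes 1.80. IER3 and MYC, with equal counts, had log2 ratios of opposite sign.

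Promoter sequences from RefSeq on GRCh38.p14, from 250 bases before to 50 after the start site, were given for 7 members, and those of FOSL1, IER3 and MYC were not analysed here. The CArG box, to which serum response factor binds, was found on either strand in 1 of the 7, EGR1, and in 1.29% of 27305 promoters. Boxes outside this stretch were not searched for, so the other members may hold them further away. The letters of the AP-1 site, TGAGTCA, were found in FOSL2 alone (4.92% of promoters), and those of the cyclic AMP response element, TGACGTCA, in JUND alone (1.98% of promoters). EGR1 held a pair of CArG boxes, 105 and 83 bases before its start, shown in capitals. The gene was picked for display because it had the highest log2 ratio of the members, 1.02, though at a mean FPKM under 1. A link between the boxes and that ratio was not tested. The boxes lie in overlapping windows of the plus strand of GRCh38.p14.
EGR1 box at 105 (chr5:138465364-138465393): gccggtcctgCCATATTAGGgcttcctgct
EGR1 box at 83 (chr5:138465386-138465415): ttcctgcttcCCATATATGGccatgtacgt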

How the data were processed

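Ribosomal RNA was removed and libraries were sequenced on an Illumina instrument. Per the submitters' processing notes and the paper, the authors trimmed reads (cutadapt 1.2.1), mapped them to hg19 (TopHat 2.0.8) and ran Cufflinks and cuffdiff 2.0.2. The deposited values are FPKM per transcript, 1 per condition. The authors' own fold changes, test statistics, p-values and q-values are also in the table and were not used.

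FPKM was summed per gene symbol, and log2 ratios were taken without a pseudocount. A mean FPKM of at least 1 was required for summaries. Exons, introns and 3' UTRs came from canonical transcripts of GENCODE release 44 lifted to GRCh37, where 92.6% of 12334 expressed gene symbols were found. The arithmetic of the ratios and counts was checked on simulated data without noise, which does not measure how reliable a count is. Python 3.11.15, numpy 2.4.6, pandas 2.3.3 and matplotlib 3.10.9 were used. The genes named are the 10 members, SNRNP40, the cell line genes, and in each list the 3 most abundant and those past an absolute log2 ratio of 0.5; EGR3, EGR4, SRF, FOSB, BATF2, MYCN, neighbouring genes and the other early genes of 1 exon were added after their values were seen. A gene that this rule names is not reported here. The members and lists were chosen with earlier results of these data known. Whether reads were counted by strand is not given in the sources used here.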

Additional observations from a re-analysis of the deposited data

How the results depend on the processing

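No paired analysis was possible because the table combines the libraries of each condition, and for the same reason no replicate could be left out. Of 50 log2 ratios of single members under 5 alternatives, 48 stayed within 0.1 and 2 moved, FOS to 0.30 and EGR1 to 0.25 with a pseudocount of 1 FPKM. Only the pseudocount could move a member by 0.1 or more, so the count of 48 does not measure robustness. The most expressed transcript and the primary chromosomes give the members identical values. Centring on the median, like upper-quartile scaling, shifts all gene symbols equally and by less than 0.1. Upper-quartile scaling shifts all log2 ratios by -0.082 and turned no member's sign. Without a filter on low values the median of the members was 0.068, 1 member (EGR1) was past an absolute log2 ratio of 1, the difference between intronless and spliced members was -0.32, and the median of the other early response genes was 0.10. With the filter kept and exon numbers taken from the annotation, the difference between intronless and spliced members was 0.032. At a mean FPKM of at least 5 the median of the AP-1 and ATF partners was -0.12. With the most expressed transcript in place of the sum, the median of the MYC network was -0.090. SNRNP40 had a log2 ratio of -2.72, and of -2.54 with a pseudocount of 1. Among gene symbols with 1 listed transcript, a background chosen after seeing the data, 11.1% were past 0.5. Depth is unknown, so counting error cannot be given.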

Other observations

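Genes next to a member were examined in the table within 2000 bases. FLOT1, a membrane scaffold gene 522 bases from IER3, had 47.0 FPKM with control siRNA and 61.3 with SNRNP40 siRNA, a log2 ratio of 0.38 where IER3 had -0.34. CCDC85B, 585 bases from FOSL1, had 36.3 and 43.6 (0.27), in the same direction as FOSL1. Among the listed transcripts, 0 of another gene overlapped a member. The annotation lists 8 overlapping genes over 5 of the 10 members, 7 of them on the opposite strand, among them HOOK2 at JUNB and the antisense RNA genes FOSL2-AS1 and IER3-AS1. If reads were counted without strand, reads of these partners could not be told apart from those of the member.

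Among the other early response genes, the 3 with 1 exon did not share a direction. IER5, a relative of IER2, had 31.8 FPKM with control siRNA and 42.8 with SNRNP40 siRNA (log2 ratio 0.43). RHOB, an early-induced small GTPase gene, had 11.1 and 14.1 (0.34). IER5L had 9.80 and 7.48 (-0.39). The median of these 3 was 0.34, and that of the 27 spliced genes of that list above the filter was -0.022.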
